A study of Homo sapiens with 6 samples.

Results

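The genes described are ALB, AFP, AFM, GC, TTR and RBP4, which encode the albumin family and 2 smaller carrier proteins of blood plasma. They were chosen by name, and all 6 of 6 were found among the 79172 gene names of the count table. RNA-seq was done on Huh7, an established line of human hepatocellular carcinoma cells, to ask what overexpression of hexokinase 1 does to such cells. The tested libraries were 3 from Huh7 cells labelled as overexpressing HK1, set against 3 from Huh7 cells labelled as control. The sources used here do not say how HK1 was introduced, what control cells were given in its place, or whether either line was 1 clone or a pool. Nor do the labels say that replicates came from separate cultures, so the p-values measure only the spread between these libraries, which may be technical.

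Albumin, encoded by ALB, is the main protein of plasma and carries fatty acids, bilirubin, hormones and many drugs. AFP encodes alpha-fetoprotein, its counterpart in the fetal liver, which adult hepatocytes nearly silence and which many liver tumours make again. AFM encodes afamin, a carrier of vitamin E and of Wnt proteins, and GC encodes the vitamin D-binding protein, which also takes up free actin. These 4 proteins are relatives that arose by gene duplication, and their genes lie in a cluster on the long arm of human chromosome 4. RBP4 carries retinol out of the liver and travels in plasma bound to transthyretin, the product of TTR, which also carries thyroxine. RBP4 is a lipocalin and transthyretin belongs to neither family, so these 2 are joined to the others by function and not by descent.

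In hg38, the build of the counts, ALB lies at chr4:73397114-73421482, AFP at chr4:73431138-73456174 and AFM at chr4:73481745-73504001, all on the plus strand. GC lies further off on the minus strand of the same chromosome at chr4:71741696-71804041. RBP4 is at chr10:93591687-93601744 on the minus strand and TTR at chr18:31557009-31598833 on the plus strand. These spans run from the first to the last exon base that the count table gives for the gene. All 6 are protein-coding genes and were counted over their exons.

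RefSeq promoters (build GRCh38.p14) were at hand for 4 of the 6 genes, ALB, AFP, AFM and RBP4, the last with 3 starts. The 150 bases before the start site of the adjacent genes ALB, AFP and AFM are shown because these relatives lie side by side and the first 2, ALB and AFP, fell by similar amounts in the values below, while AFM was too low to compare. They lie at chr4:73404137-73404286, chr4:73436071-73436220 and chr4:73481595-73481744, all on the plus strand. The ALB and AFP stretches fall inside the spans given above, whose first base comes from the count table and lies before the RefSeq start. Capitals mark the letters CCAAT, which several general factors bind, on either strand (ATTGG as printed where it is on the other strand), and TATAAA, a core promoter element.
ALB: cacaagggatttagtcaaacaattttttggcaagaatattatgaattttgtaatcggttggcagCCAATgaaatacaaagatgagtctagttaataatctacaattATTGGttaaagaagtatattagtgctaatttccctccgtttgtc
AFP: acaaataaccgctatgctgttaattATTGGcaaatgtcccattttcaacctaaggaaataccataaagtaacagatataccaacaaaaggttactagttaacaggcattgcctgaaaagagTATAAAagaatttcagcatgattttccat
AFM: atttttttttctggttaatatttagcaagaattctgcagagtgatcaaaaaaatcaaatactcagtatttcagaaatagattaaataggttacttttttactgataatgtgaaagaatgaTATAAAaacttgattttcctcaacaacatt

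Within 250 bases before the start, searched on both strands, CCAAT was found in ALB at 2 places, in AFP at 1 and in 1 of the 3 RBP4 windows. Among all 35116 RefSeq promoter windows, 32.0% hold it. The ALB matches begin 86 and 44 bases and the AFP match begins 125 bases before the start. TATAAA was found in AFP 29 and in AFM 30 bases before the start, in 2 of the 3 RBP4 windows, and in 10.7% of all windows. None of these windows held the direct repeat bound by HNF4, with at most 3 mismatches, against 6.35% of all windows. The letters TTNNGNAA, a C/EBP site, occurred 4 times in ALB and in AFM, once in AFP, and 3 times and once in 2 of the RBP4 windows. Those 3 include 1 stretch that matched on both strands and was counted on each. Of all windows, 33.2% hold these letters. TGTTTNC, a FOXA site, was found in ALB alone of these windows, and 15.5% of all windows hold it. A match is a stretch of letters and not a measured binding site.

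Libraries held 16771835 to 20823072 counts. Levels are given as CPM, counts per 1000000 of the library total after TMM scaling. RPKM, which is CPM per 1000 bases of exon, is added where the 6 genes are ordered by level. Ranks and limits over all tested genes, and sums of markers, use CPM. HK1 checked the labels: its counts were 9723, 10602 and 11101 in HK1-overexpressing libraries, against 13, 15 and 13 in control libraries. The 3 endothelial markers summed to 4.53 to 5.399 CPM in HK1-overexpressing libraries, against 4.02 to 6.25 CPM in control libraries, with CDH5 at a count of 0 throughout, and the 4 mesenchymal markers to 2.36 to 3.12 CPM, against 2.66 to 3.46 CPM in control libraries. The 4 leukocyte markers moved with the groups, at 46.6 to 51.2 CPM in HK1-overexpressing libraries, against 64.3 to 74.3 CPM in control libraries. Nearly all of that was LYZ, lysozyme, while PTPRC, the defining leukocyte gene, had 1 to 3 counts a library. The 7 hepatocyte markers outside the genes described here, all detected, summed to 5672 to 5870 CPM in HK1-overexpressing libraries, against 6356 to 7568 CPM in control libraries, and the part of either sum in the results was not tested. In all, 1342 of 16734 tested genes were called at an adjusted p below 0.05, 694 lower and 648 higher, by edgeR's quasi-likelihood test with Benjamini-Hochberg adjustment. Scaling by library totals only gave 462 lower and 907 higher. Before adjustment, with TMM scaling, an edgeR p of 0.0524 ranked 3761 among the 16734, so unadjusted p-values near or under 0.05 were common. Control libraries varied more than HK1-overexpressing ones, with a chi-square per degree of freedom of 1.58 to 2.28 between HK1-overexpressing pairs and 5.08 to 11.3 between control pairs.

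ALB, AFP, GC and TTR were lower in HK1-overexpressing cells, by amounts that ran in steps. GC fell to 48.6% of its control level, AFP to 67.4%, ALB to 69.3% and TTR to 82.4%. RBP4 stood at 89.6% of its control level and did not pass, and AFM, close to the limit of detection, had more counts in HK1-overexpressing cells and did not pass either. So 4 of the 6 genes fell and 0 rose by edgeR's test, where 4.15% of all tested genes fell and 3.87% rose. By DESeq2 and limma-voom 0 rose too. AFM was the 1 higher at an unadjusted edgeR p under 0.05, but it entered the test only through the HK1-overexpressing group. In all 5 of the genes other than AFM the libraries of the groups did not overlap, which held for 27.8% of all tested genes. The median log2 change over all tested genes was 0.0063. In these bulk libraries, fewer cells making a transcript and less of it per cell cannot be told apart.

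**Figure D1:**
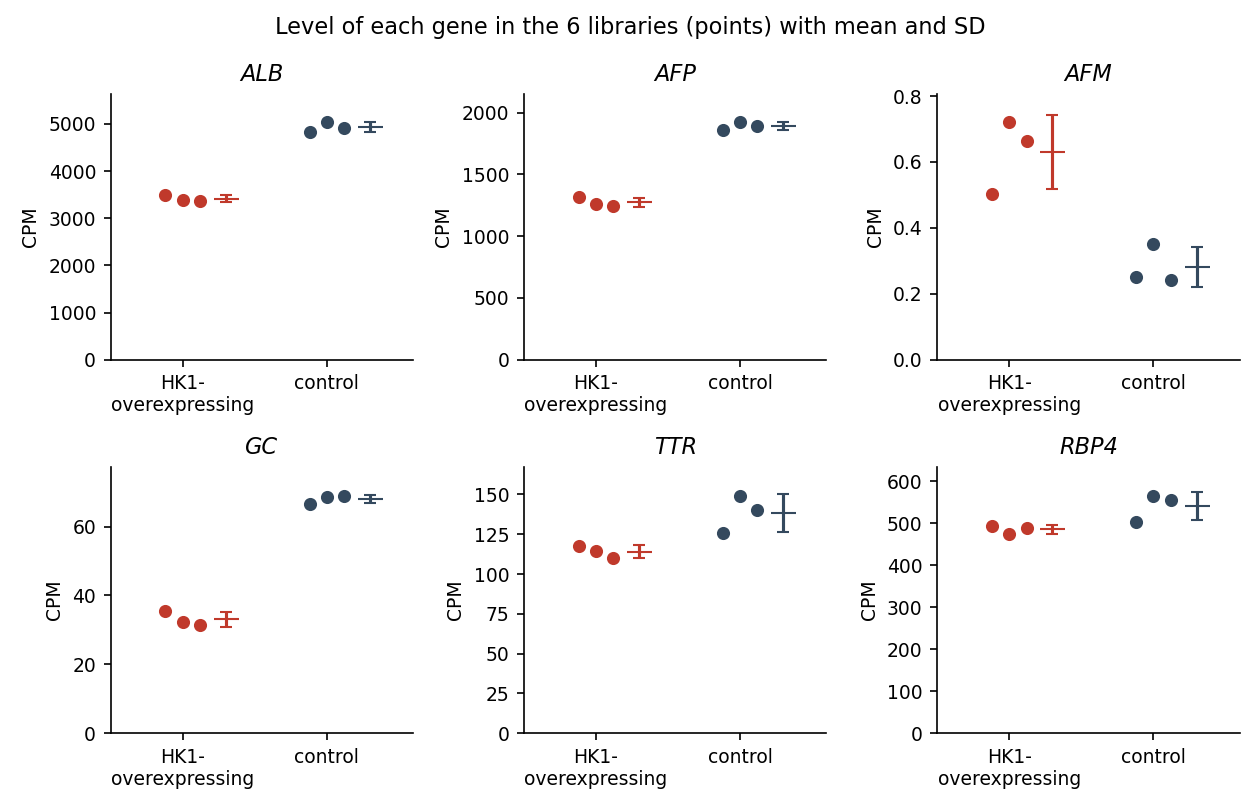
Level of each gene in CPM (vertical axis from 0, a separate scale for each gene), with HK1-overexpressing libraries in red on the left and control libraries in dark blue on the right; points are libraries, and the bar beside them is the mean with its SD (n = 3). All HK1-overexpressing points lie below all control points for ALB, AFP, GC, TTR and RBP4, and above them for AFM, whose axis ends below 1 CPM.

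ALB, the most abundant of the 6, had 3493, 3381 and 3369 CPM in HK1-overexpressing libraries, against 4825, 5039 and 4914 CPM in control libraries. All 3 HK1-overexpressing libraries lay below the lowest control, and the gap between the groups was several times the range within either. The means were 3414 ± 68.5 CPM in HK1-overexpressing cells and 4926 ± 107 CPM in control cells (SD, n = 3 each). That is -0.53 on the log2 scale, SE 0.042, HK1-overexpressing over control (edgeR adjusted p = 3.26e-06). ALB ranked 12 among all tested genes by mean CPM. Its counts alone made up 0.342% to 0.354% of HK1-overexpressing libraries, against 0.478% to 0.497% of control libraries.

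AFP had 1316, 1264 and 1244 CPM in HK1-overexpressing libraries, against 1860, 1924 and 1890.5 CPM in control libraries. Its groups stood apart in the same way as those of ALB. The means were 1275 ± 37.3 CPM in HK1-overexpressing cells and 1891 ± 32.1 CPM in control cells (SD, n = 3 each), a log2 fold change of -0.57, SE 0.043 (edgeR adjusted p = 2.37e-06). AFP was the second most abundant of the 6. Of 72 tested genes with a mean of at least 1000 CPM, 14 fell and 1 rose, with a median log2 change of -0.06. AFP and ALB fell furthest of those 14, but the limit was chosen after the values were seen, and TF, just under it at a mean of 961 CPM, fell by 0.54 on the log2 scale, more than ALB.

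GC, the vitamin D-binding protein, had 35.5, 32.3 and 31.4 CPM in HK1-overexpressing libraries, against 66.6, 68.4 and 69.0 CPM in control libraries. The highest HK1-overexpressing library reached little more than the midpoint between 0 and the lowest control. The means were 33.1 ± 2.17 CPM in HK1-overexpressing cells and 68.0 ± 1.28 CPM in control cells (SD, n = 3 each), a log2 fold change of -1.04, SE 0.064 (edgeR adjusted p = 3.52e-07). GC was the only one of the 6 to pass a test against a fold of 1.5 (edgeR's glmTreat, adjusted p = 0.00048), which 0.287% of all tested genes passed. By p it ranked 6 among all tested genes.

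TTR, transthyretin, had 118, 115 and 110.0 CPM in HK1-overexpressing libraries, against 126, 149 and 140.2 CPM in control libraries. The groups did not overlap, but control replicate 1 lay close to the highest HK1-overexpressing library. The means were 114 ± 3.84 CPM in HK1-overexpressing cells and 138 ± 11.9 CPM in control cells (SD, n = 3 each), a log2 fold change of -0.28, SE 0.063 (edgeR adjusted p = 0.0139). TTR no longer passed when control replicate 3 or a single HK1-overexpressing replicate was left out, where the edgeR adjusted p was 0.0582 to 0.0985 and the log2 change -0.25 to -0.29.

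RBP4, the retinol carrier, had 492, 473 and 489 CPM in HK1-overexpressing libraries, against 502, 566 and 555 CPM in control libraries. Control replicate 1 again lay next to the HK1-overexpressing libraries. The means were 485 ± 10.3 CPM in HK1-overexpressing cells and 541 ± 33.9 CPM in control cells (SD, n = 3 each), a log2 fold change of -0.16, SE 0.052 (edgeR adjusted p = 0.0797). Without control replicate 1 the log2 change was -0.20 and passed (edgeR adjusted p = 0.00302).

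AFM, afamin, was barely detected, with 10, 15 and 14 counts in HK1-overexpressing libraries, against 5, 6 and 4 counts in control libraries. That is 0.504, 0.721 and 0.663 CPM in HK1-overexpressing libraries, against 0.251, 0.352 and 0.243 CPM in control libraries. It passed the filter on low counts only through the HK1-overexpressing group, all 3 of whose libraries reached the 0.504 CPM needed, against 0 of 3 control libraries. A gene that enters the test in this way had to be higher in that group. Its log2 fold change of 1.15, with a standard error of 0.392, did not pass (edgeR adjusted p = 0.0852). The pooled 39 counts in HK1-overexpressing cells against 15 in control cells gave a ratio of 2.31 per library total, with an exact 95% interval of 1.245 to 4.51 that covers counting error only. The ratio and its interval carry the same selection by group, so they are no evidence of a rise.

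**Figure D2:**
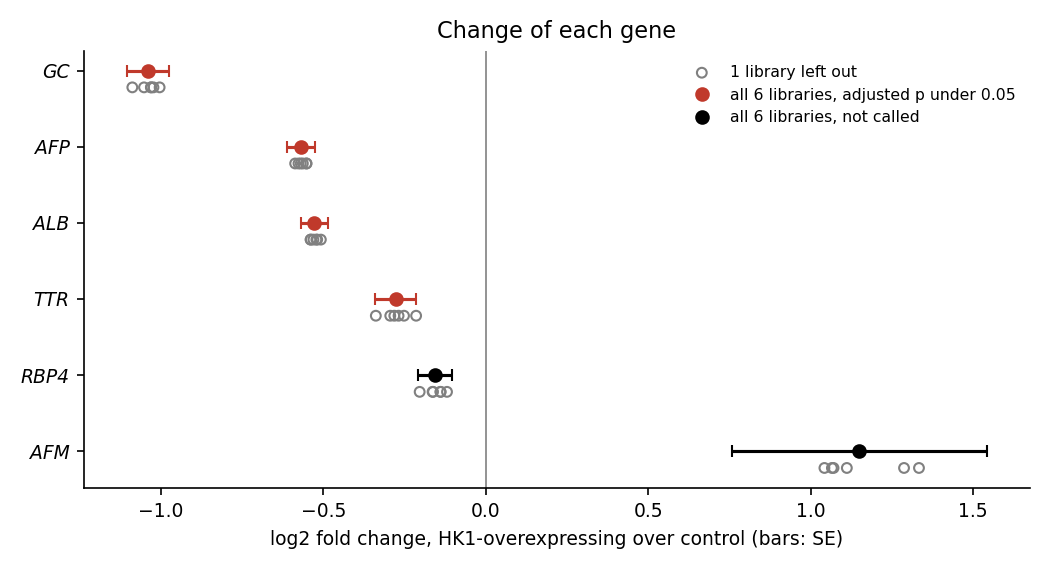
Log2 fold change of each gene, HK1-overexpressing over control (horizontal axis), with its standard error as a bar, in red where the edgeR adjusted p was below 0.05 and black otherwise; open grey circles are the same value with 1 library left out. GC lies near -1, AFP and ALB near -0.55, TTR at -0.28 and RBP4 at -0.16, all with circles on the same side of 0, and AFM lies above 0 with a wide bar.

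The order of levels per length of transcript was the same in both groups, with ALB first, then AFP, RBP4, TTR, GC and AFM. ALB stood at 1006 ± 20.2 RPKM in HK1-overexpressing cells and 1451 ± 31.7 RPKM in control cells (SD, n = 3 each). AFP stood at 398 ± 11.6 RPKM and RBP4 at 333 ± 7.08 RPKM in HK1-overexpressing cells, against 591 ± 10.01 RPKM for AFP and 371 ± 23.3 RPKM for RBP4 in control cells. TTR reached 52.4 ± 1.76 RPKM in HK1-overexpressing cells and 63.6 ± 5.45 RPKM in control cells. GC reached 15.8 ± 1.03 RPKM in HK1-overexpressing cells and 32.5 ± 0.609 RPKM in control cells, and AFM reached 0.288 ± 0.052 RPKM in HK1-overexpressing cells and 0.129 ± 0.028 RPKM in control cells. In each group, neighbours in this order differed by more than the spread between libraries. The exon length in the count table merges every annotated transcript, and for TTR it is 2176 bases, against 957 bases for its longest transcript with a consensus coding sequence in GENCODE release 29. With such transcript lengths, an alternative chosen after seeing the data, TTR was at 119 ± 4.01 RPKM in HK1-overexpressing cells and 145 ± 12.4 RPKM in control cells, and the order stayed as given. Together the 6 genes took 0.532% to 0.552% of counts in HK1-overexpressing libraries, against 0.731% to 0.764% in control libraries.

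Ratios between 2 of the genes within 1 library do not depend on how libraries are scaled. The log2 ratio of ALB to AFP counts was 1.41, 1.42 and 1.44 in HK1-overexpressing libraries, against 1.38, 1.39 and 1.38 in control libraries. The groups did not overlap, but the difference of the means was only 0.0408, so that ALB and AFP kept nearly the same proportion. The log2 ratio of ALB to GC was 6.62, 6.71 and 6.74 in HK1-overexpressing libraries, against 6.18, 6.20 and 6.15 in control libraries, a difference of 0.51. The log2 ratio of ALB to RBP4 was 2.83, 2.84 and 2.78 in HK1-overexpressing libraries, against 3.26, 3.15 and 3.15 in control libraries, a difference of -0.37. GC therefore lost ground to ALB and AFP, and these lost ground to RBP4.

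For TTR against RBP4, the pair that travels together in plasma, the log2 ratio was -2.07, -2.04 and -2.15 in HK1-overexpressing libraries, against -1.9975, -1.92 and -1.99 in control libraries. The difference was -0.12, the smallest of the 15 pairs after that of ALB and AFP. The log2 ratio of ALB to TTR differed by -0.25 and that of GC to TTR by -0.77. All 10 pairs without AFM had no overlap between groups, and the 5 pairs with AFM carry its low counts and its entry through 1 group. Each of the 15 had a p of 0.10 in an exact permutation test, two-sided, which is the smallest that 3 against 3 libraries allow, and 0.10 after Benjamini-Hochberg adjustment over the 15 pairs, so that no pair could pass 0.05.

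**Figure D3:**
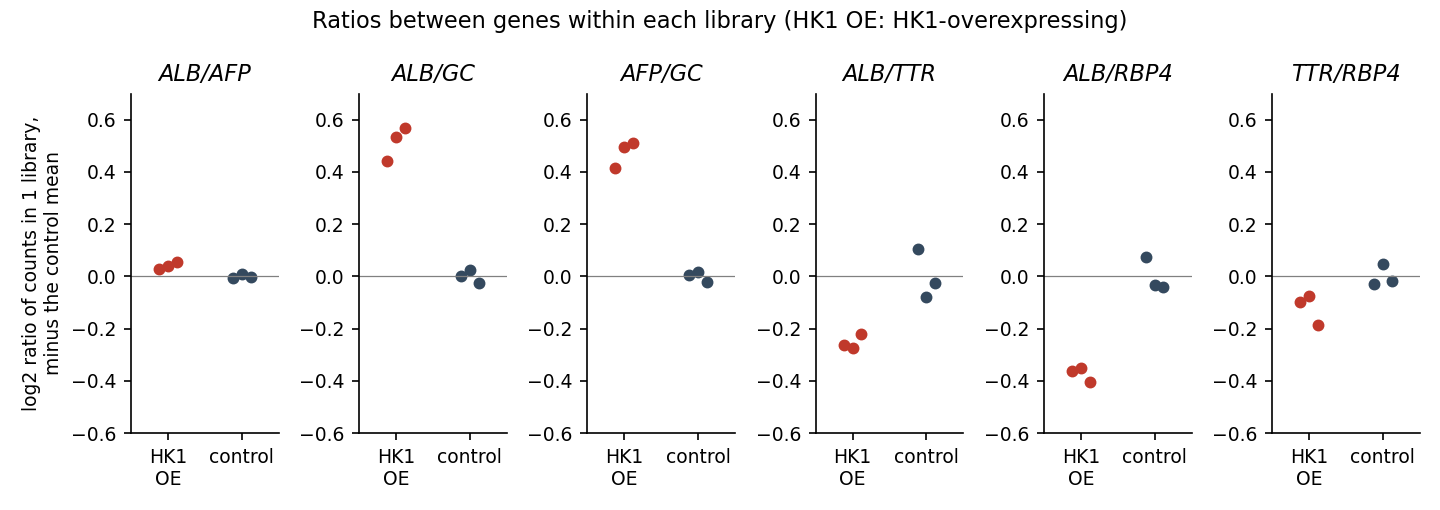
Log2 ratio of the counts of 2 genes in the same library, minus the mean of the control libraries (vertical axis, the same in each panel), for 6 of the 15 pairs; red points on the left are HK1-overexpressing libraries and dark blue points on the right are control libraries. ALB/AFP hardly moved, ALB/GC and AFP/GC were higher in HK1-overexpressing libraries, and ALB/TTR, ALB/RBP4 and TTR/RBP4 were lower.

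The fall of ALB, AFP and GC was not shared by the genes around them. The window from 1000000 bases before GC to 1000000 bases after AFM held 81 other gene names, of which 27 were tested. Of these 0 fell and 2 rose by edgeR's test (0 fell by DESeq2 and limma-voom too, and at an unadjusted edgeR p under 0.05 the counts were 0 lower and 5 higher). A log2 change lay above 0 in 22 and below 0 in 5, with a median of 0.15, where the median over all tested genes was 0.0063. That is 7.41% called, where 8.02% of all tested genes were. Y_RNA and Metazoa_SRP among the 27 are names shared by copies far apart on the chromosome.

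NPFFR2, which encodes a neuropeptide receptor and lies between GC and ALB, averaged 8.76 ± 0.789 CPM in HK1-overexpressing cells and 5.19 ± 0.499 CPM in control cells (SD, n = 3 each), a log2 change of 0.76 (edgeR adjusted p = 0.00103). CXCL5, a neutrophil chemokine on the far side of AFM, rose by 0.23 on the log2 scale (edgeR adjusted p = 0.0139), a call lost without HK1-overexpressing replicate 2 or 3 (adjusted p of 0.108 and 0.0887). The tested genes next to ALB and to AFM did not pass. ANKRD17-DT, the nearest before ALB, had a log2 change of 0.02 (edgeR adjusted p = 0.976). ANKRD17, a large ankyrin repeat gene beyond it, was at 107 ± 2.57 CPM in HK1-overexpressing cells and 104 ± 12.98 CPM in control cells. RASSF6, a Ras-association domain gene after AFM, was at 2.30 ± 0.203 CPM in HK1-overexpressing cells and 1.93 ± 0.285 CPM in control cells. CXCL8, which encodes interleukin 8, was at 267.5 ± 4.58 CPM in HK1-overexpressing cells and 241 ± 9.13 CPM in control cells (edgeR adjusted p = 0.0747).

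**Figure D4:**
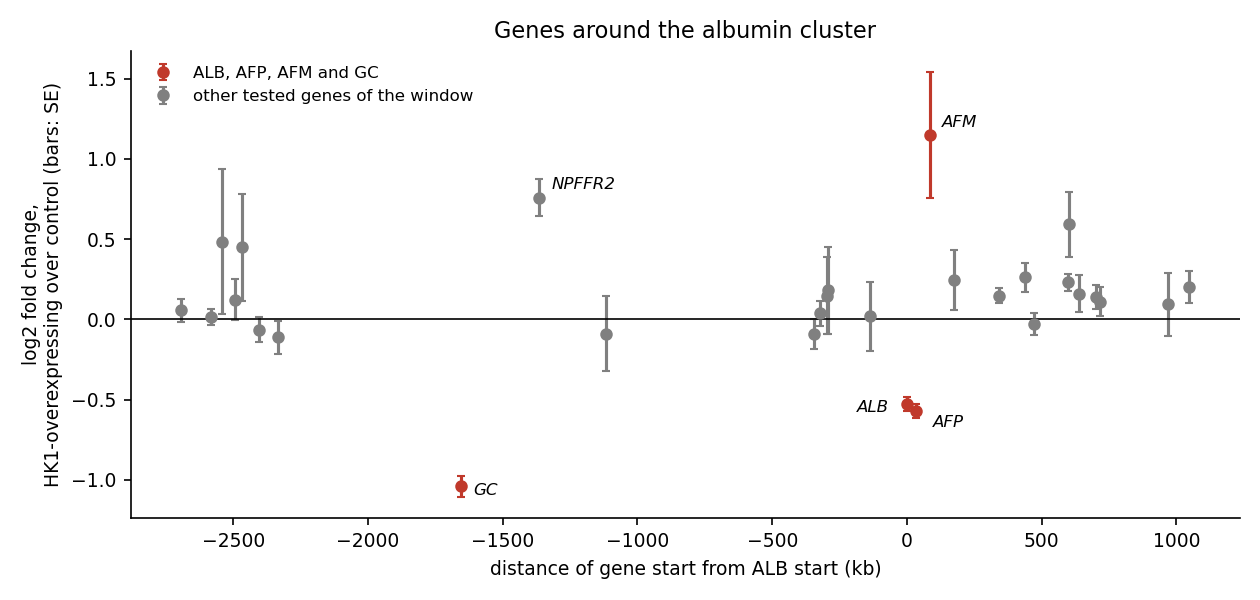
Log2 fold change, HK1-overexpressing over control (vertical axis, bars are standard errors), of the tested genes around the albumin cluster by the distance of their start from that of ALB in kilobases (horizontal axis), with ALB, AFP, AFM and GC in red and other genes in grey; the 2 names of repeated copies are left out. GC, ALB and AFP lie below 0 at -1.04, -0.53 and -0.57, while the grey genes between and beside them lie near or above 0, NPFFR2 highest of them at 0.76.

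The gene whose pattern over the 6 libraries was nearest to that of ALB, among 9446 with a mean of at least 10 CPM, was TF, the iron carrier transferrin. Likeness was measured as the root mean square difference of log2 CPM centred on each gene's mean, which was 0.0158 for TF and 0.0225 for AFP. TF averaged 782 ± 16.1 CPM in HK1-overexpressing cells and 1140 ± 31.0 CPM in control cells (SD, n = 3 each), a log2 change of -0.54. For GC the nearest were MEP1A, which encodes a meprin protease subunit, ASGR1, of the asialoglycoprotein receptor, and ITIH2, of the inter-alpha-trypsin inhibitors, at 0.0376 to 0.0607. For TTR they were ID3, SRM and CACYBPP2 at 0.0314 to 0.0330, and for RBP4 they were TOR1A, RPS3AP6 and RPSA2 at 0.0156 to 0.0166. No gene came nearer to AFM than AKR1B1 at 0.159. Among the 6 themselves, the centred pattern of GC differed from that of RBP4 by 0.446 and that of TTR from that of RBP4 by 0.0722. CACYBPP2, RPS3AP6 and RPSA2 are near-identical copies of other genes, so their counts are uncertain. These are descriptions over 6 libraries of 2 groups and carry no test.

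Other listed plasma carriers moved both ways, but the rises were of genes whose proteins bind insulin-like growth factors, which are peptides and not small molecules. Of 17 tested among 21 listed, 6 fell and 2 rose, with a median log2 change of -0.35. That is 47.1% called, against 8.02% of all tested genes. TF, AMBP, which encodes alpha-1-microglobulin and bikunin, and CP, the copper protein ceruloplasmin, were among those that fell, CP by 0.65 on the log2 scale and AMBP by 0.49. The 2 that rose were IGFBP1 and IGFBP3. IGFBP1 averaged 9.07 ± 0.476 CPM in HK1-overexpressing cells and 4.82 ± 0.374 CPM in control cells (edgeR adjusted p = 0.00015). IGFBP3 rose by 0.41 on the log2 scale (edgeR adjusted p = 0.00189). SERPINA7, the thyroxine-binding globulin, shares its cargo with transthyretin and was at 1.00 ± 0.158 CPM in HK1-overexpressing cells and 1.61 ± 0.448 CPM in control cells, with no call (edgeR adjusted p = 0.130).

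ALB, TTR, RBP4 and TF are negative acute phase proteins, whose synthesis falls in inflammation while that of positive ones rises. Of 9 tested negative acute phase genes outside the 6 described here, TF among them, 7 fell and 0 rose, where 4.15% of all tested genes fell. Their median log2 change was -0.80, with 2 of the 9 above 0. Without control replicate 3 the rises numbered 1. AHSG, which encodes fetuin-A, fell by 1.32, ITIH2 by 1.05 and SERPINC1, antithrombin, by 1.04 on the log2 scale. Of 12 tested positive acute phase genes among 23 listed, 9 fell and 0 rose, and 3 were not called, with a median of -0.47. Both classes share genes with the carriers above, TF and CP among those that fell, so these counts are not separate. In both classes 0 rose by DESeq2 and limma-voom too, and 0 were higher at an unadjusted edgeR p under 0.05. The positive class had 6 falls without control replicate 3 or HK1-overexpressing replicate 2. C3, the central complement component, averaged 441 ± 5.18 CPM in HK1-overexpressing cells and 669 ± 29.1 CPM in control cells, and FGB, the fibrinogen beta chain, fell by 0.27 on the log2 scale. CRP, the classic positive marker, had a count of 0 in all 6 libraries.

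Of 31 tested hepatocyte transcription factor genes, 7 fell and 2 rose, with a median log2 change of -0.11. Among all tested genes 8.02% were called. NR1H4, the bile acid receptor, HLF, a PAR-domain factor, and TBX3 fell by 0.61, 0.53 and 0.38 on the log2 scale, and CREB3L3 rose by 0.40. The falls numbered 4 without control replicate 3, 2, 2 and 3 without HK1-overexpressing replicate 1, 2 and 3, and 4 with library totals only. Only 1 rise was left when control replicate 3 or a single HK1-overexpressing replicate was dropped. TBX3 lost its call without HK1-overexpressing replicate 1 or 2, with edgeR adjusted p-values of 0.0556 and 0.0539. HNF4A was at 156 ± 3.87 CPM in HK1-overexpressing cells and 155 ± 4.85 CPM in control cells (edgeR adjusted p = 0.924). HNF4A, a nuclear receptor of hepatocytes, was picked after its values were seen, as were the genes FOXA1, FOXA2 and FOXA3. FOXA1, FOXA2 and FOXA3 were among the 7 that fell, by 0.25, 0.25 and 0.32 on the log2 scale. Their edgeR adjusted p-values were 0.0358, 0.0141 and 0.045. All of these FOXA calls were lost whenever any 1 HK1-overexpressing replicate was left out.

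Of the 4 listed repressors of AFP, 0 were called by edgeR, DESeq2 or limma-voom, and 0 had an unadjusted edgeR p under 0.05. Among 14 tested oncofetal liver genes, which like AFP are made in the fetal liver and again in tumours, 3 fell and 1 rose, with a median log2 change of 0.01. That is 28.6% called, where 4.15% of all tested genes fell and 3.87% rose. GPC3, glypican 3, averaged 375 ± 4.28 CPM in HK1-overexpressing cells and 512 ± 14.2 CPM in control cells (log2 -0.45, edgeR adjusted p = 2.34e-05). IGF2 fell by 0.71 and MDK, midkine, by 0.24 on the log2 scale, while SPP1, osteopontin, rose by 0.36. Without control replicate 1 the rises numbered 2. MDK lost its call with library totals only, when control replicate 3 was dropped, and when a single HK1-overexpressing replicate was, where its edgeR adjusted p was 0.0544 to 0.149. H19, another oncofetal transcript, had a count of 0 in every library.

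Of 16 tested genes of retinoid handling, which process or carry the cargo of RBP4, 1 fell and 0 rose by edgeR, with a median log2 change of -0.05. That is 6.25% called, against 8.02% of all tested genes. DESeq2 and limma-voom also gave 0 rises, 2 were higher at an unadjusted edgeR p under 0.05, and 1 rose without control replicate 1 or 2. The fall was of ALDH1A1, which makes retinoic acid from retinal, at 1023 ± 11.3 CPM in HK1-overexpressing cells and 1238 ± 23.3 CPM in control cells (edgeR adjusted p = 0.000978). STRA6, the RBP4 receptor, had at most 3 counts in any library. Of 11 tested genes of vitamin D handling 1 fell and 1 rose, with a median of -0.04 and 18.2% called, and neither call held without some single libraries. AMN, which anchors the receptor cubilin, was at 7.44 ± 1.93 CPM in HK1-overexpressing cells and 11.5 ± 0.639 CPM in control cells, and DAB2, an endocytic adaptor, at 245 ± 3.33 CPM in HK1-overexpressing cells and 207 ± 11.3 CPM in control cells. Without 1 library, the edgeR adjusted p of AMN reached 0.112, without HK1-overexpressing replicate 1, and was also above 0.05 without HK1-overexpressing replicate 2 or control replicate 2 or 3, and that of DAB2 was 0.0544 to 0.0565 without any 1 HK1-overexpressing replicate.

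Of 8 tested genes of thyroid hormone handling 0 were called by edgeR, DESeq2 or limma-voom, 1 was higher and 1 lower at an unadjusted edgeR p under 0.05, and 1 fell without control replicate 2. Their median log2 change was -0.21, with 7 below 0 and 1 above. Of 9 tested genes of uptake or recycling of the carriers, 1 fell, which was AMN again, and 1 rose. That is 22.2% called, where 8.02% of all tested genes were. The rise was of CAV1, caveolin 1, at 48.6 ± 0.593 CPM in HK1-overexpressing cells and 26.3 ± 2.75 CPM in control cells (log2 0.89, edgeR adjusted p = 4.31e-06). FCGRT, the receptor that rescues albumin from breakdown, was at 24.5 ± 1.04 CPM in HK1-overexpressing cells and 28.8 ± 1.63 CPM in control cells and was not called (edgeR adjusted p = 0.0638). Of 38 genes of the secretory pathway 2 fell, HSPA5 and PDIA4, chaperones of the endoplasmic reticulum, by 0.30 and 0.26 on the log2 scale. That is 5.26% called, below the 8.02% of all tested genes. There were 0 rises by edgeR, DESeq2 or limma-voom. At an unadjusted edgeR p under 0.05, 10 were lower and 0 were higher. Over all 16734 tested genes an edgeR p of 0.0524 ranked 3761, so p-values near this limit were common. A log2 change lay below 0 in 28 of the 38 and above 0 in 10, where the median over all tested genes was 0.0063. Without control replicate 1 there were 5 falls and 1 rise, and without control replicate 2 there were 6 falls.

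**Figure D5:**
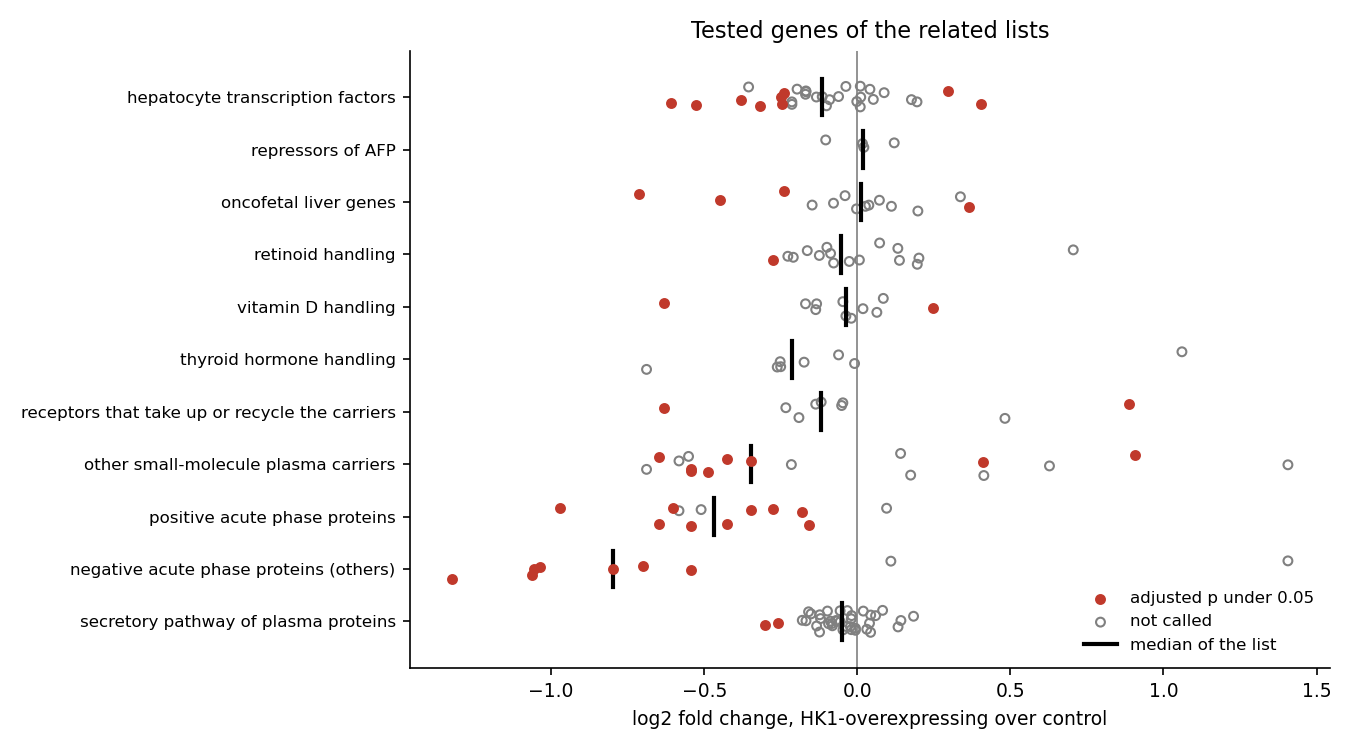
Log2 fold change, HK1-overexpressing over control (horizontal axis), of each tested gene of the related lists (rows); red points had an edgeR adjusted p below 0.05, grey circles did not, and black bars are medians. The acute phase lists lie mostly below 0, with medians of -0.47 and -0.80, while the retinoid, vitamin D and secretory lists centre within 0.06 of 0.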

How the data were processed

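RNA of Huh7 cells was sequenced in 6 stranded mRNA libraries, per the labels' protocols. The authors deposited raw counts per gene, made with featureCounts 1.5.3 on GENCODE release 47 exons, per the file headers. The same header names no strand option, so reads of a gene and of an antisense neighbour cannot be told apart. Trim Galore, Subread and the build hg38 are named in the submitters' processing notes, and the deposited table also gives exon positions and lengths. Groups and replicate numbers come from the sample titles, and every column of sample values was used.

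Counts were fitted with edgeR 4.0.16 in R 4.3.3 (TMM factors, default filter on low counts, robust quasi-likelihood test, 16734 genes tested), with p-values adjusted by Benjamini-Hochberg over all of them at 0.05. The test against a fold of 1.5 was glmTreat. Ratios used log2 of counts with 0.5 added. Totals of 16771835 to 20823072 counts limit AFM, and intervals cover counting error only. Alternatives, among them DESeq2 1.42.0 and limma 3.58.1 voom, are given in the closing section. The method was tested on simulated data.

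The genes and the 11 lists of related genes (214 entries, 200 symbols, 14 of them in several lists) were chosen with earlier results of these data known. From each list the text names up to 4 called genes by smallest p, or the gene of smallest p where 0 were called. In addition, CRP, H19, STRA6, FCGRT, HNF4A, FOXA1, FOXA2, FOXA3 and IGFBP3 were picked after their values were seen. Some listed genes are not reported here by name. Promoters and their letters come from RefSeq.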

Additional observations from a re-analysis of the deposited data

How the results depend on the processing

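ALB, AFP and GC kept their direction and their call in all 17 alternatives run for each, with log2 changes of -0.54 to -0.49 for ALB, -0.59 to -0.53 for AFP and -1.09 to -1.001 for GC. TTR kept its direction in 17 and its call in 13, RBP4 passed in 1 of 17, and AFM in 0 of 16, with edgeR, DESeq2 or limma-voom adjusted p-values of 0.0759 to 0.292. AFM gave no value at a mean of at least 5 CPM. Scaling by library totals only gave 462 genes lower over all genes and moved the median log2 change to 0.045, from 0.0063 with TMM factors. These factors were 1.012 to 1.014 in HK1-overexpressing libraries and 0.982 to 0.991 in control libraries. What lay behind that difference in factors was not tested. Leaving out 1 library gave 250 to 1085 genes lower and 286 to 1172 higher, and 3 to 5 of the 6 genes fell. A pseudocount of 5 in place of 0.5 moved the AFM ratios, that of ALB to AFM to -1.16. Same-numbered libraries did not deviate together (correlations of -0.0406, 0.0586 and -0.217), which gives no sign of pairing by number. With 3 libraries a group this cannot exclude that same-numbered ones shared a culture or a day. A replicate block gave 511 genes lower and 563 higher, changed no call of the 6 genes, with a log2 change of -0.53 for ALB, -0.57 for AFP, 1.14 for AFM, -1.04 for GC, -0.28 for TTR and -0.16 for RBP4, and gave the ratios an exact paired p of 0.25, the smallest that 3 pairs allow.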
